A study of Mus musculus with 32 samples.

Results

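The comparison set untreated mouse mammary tumours that had grown to 1300 mm3 against untreated tumours of the same cell line taken while smaller, and it covers 8 of the 32 arrays of the series. The large group is the bulk fraction of 4 tumours resected at 1300 mm3 (mice 2, 3, 4 and 5). The smaller group holds 2 tumours resected at a day 9 timepoint (mice 1 and 2) and 2 tumours resected at 600 mm3 (mice 3 and 4). The members were chosen by their labels alone. In all groups 4T1-Luc cells, a luciferase-marked line of the 4T1 mammary carcinoma, had been placed in a mammary fat pad of Balb/C females 8 weeks of age. All 8 mice received the drug vehicle, PBS with DMSO, after a week of tumour establishment. The line is a single one, grown in mice with their own immune system.

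The groups differ in more than size. Per the labels, the tumours at 1300 mm3 were digested with collagenase in the presence of actinomycin D, an inhibitor of transcription. Cells that bound beads carrying an antibody to PECAM-1, an endothelial surface protein, were taken out, and what remained was the bulk fraction. Every sample carries these same protocol lines, but the titles of the smaller tumours name no fraction. All 4 large tumours were on 1 slide with the matching sunitinib tumours, and all 4 smaller tumours on another. Size, bead selection and slide cannot be told apart in any comparison of large with smaller tumours.

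A growing tumour is a mixture of carcinoma cells, vessels, fibroblasts and leukocytes, and RNA of the whole tissue follows the makeup of that mixture as well as the activity of each cell type. The 4T1 carcinoma is known for secreting G-CSF and for filling its host with neutrophils. Immediate early genes such as Fos and Egr1 encode transcription factors that cells make within minutes of a stimulus, and they are also known to be induced when tissue is dissociated into single cells. In RNA of bulk tissue, fewer cells of a type and less RNA per cell cannot be told apart.

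The promoters of the immediate early genes are shown because these genes moved together and lead the rises. Each line gives 250 bases before the start of the gene and 50 after it, 5′ to 3′ on the gene's own strand, from RefSeq on build GRCm38.p6. Capitals mark TGACG on either strand, or GAANNTTC. TGACG is the core of the cyclic AMP response element that factors of the CREB and ATF families bind. GAANNTTC is a facing pair of the GAA units of the heat shock element.
Fosb promoter, chr7:19309996-19310295, minus strand: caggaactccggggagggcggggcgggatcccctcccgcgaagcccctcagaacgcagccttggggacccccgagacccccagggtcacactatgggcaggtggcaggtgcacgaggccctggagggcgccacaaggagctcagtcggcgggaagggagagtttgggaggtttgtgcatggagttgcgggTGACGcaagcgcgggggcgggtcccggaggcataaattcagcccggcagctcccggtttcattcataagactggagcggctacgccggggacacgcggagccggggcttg
Fos promoter, chr12:85473640-85473939, plus strand: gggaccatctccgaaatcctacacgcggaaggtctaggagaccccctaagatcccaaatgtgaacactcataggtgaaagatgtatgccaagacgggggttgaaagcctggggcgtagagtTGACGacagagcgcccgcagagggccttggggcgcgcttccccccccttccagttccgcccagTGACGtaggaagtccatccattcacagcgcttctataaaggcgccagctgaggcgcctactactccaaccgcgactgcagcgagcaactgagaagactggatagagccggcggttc
Nr4a1 promoter, chr15:101266596-101266895, plus strand: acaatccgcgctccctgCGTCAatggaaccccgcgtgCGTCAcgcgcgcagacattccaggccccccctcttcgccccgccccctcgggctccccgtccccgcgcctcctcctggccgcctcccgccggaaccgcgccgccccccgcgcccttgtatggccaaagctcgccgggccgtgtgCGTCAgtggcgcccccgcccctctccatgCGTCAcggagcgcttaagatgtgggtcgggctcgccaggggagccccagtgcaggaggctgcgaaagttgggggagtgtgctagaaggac
Hspa1a promoter, chr17:34972107-34972406, minus strand: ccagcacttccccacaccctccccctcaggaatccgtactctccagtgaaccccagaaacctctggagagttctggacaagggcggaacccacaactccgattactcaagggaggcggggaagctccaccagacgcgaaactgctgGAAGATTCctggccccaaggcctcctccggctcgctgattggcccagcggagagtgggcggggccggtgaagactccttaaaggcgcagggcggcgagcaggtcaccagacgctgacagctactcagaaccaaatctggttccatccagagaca
Of the 11 immediate early members that rose, described below, 9 matched the RefSeq promoter table, and 8 of these 9 windows hold TGACG on either strand. Of all 32851 promoters listed there, 20.8% hold it. Of all 19 tested members of the list that matched, risen or not, 11 hold it. The full palindrome TGACGTCA, which contains TGACG, is in 2 of the 9 windows, Dusp1 and Btg2, and in 1.79% of all promoters. GAANNTTC is in 1 of the 9, that of Hspa1a, and in 7.86% of all promoters. A match describes the letters of the window and is not a measured binding site. The other members that rose are Ier2 and Egr1.

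The scanner software called between 65.7% and 70.3% of 55681 probes well above background on the large tumours' arrays and between 67.2% and 77.6% on the smaller tumours' arrays. The mean difference was -6.07 percentage points, with an exact two-sided permutation p of 0.0857 where 4 against 4 arrays allow 0.0286 at the smallest. An array stood apart from its label: that of 1300 mm3 mouse 3 correlated on average at 0.954 with the other large tumours and at 0.966 with the smaller ones. The other large tumours correlated at 0.962 to 0.971 with their own size and at 0.925 to 0.949 with the smaller size. On the first principal component, with 46.9% of the variance, mouse 3 lay at -8.93, its 3 group mates between 50.45 and 90.02, and the smaller tumours between -59.55 and -36.77. Results are therefore given with and without mouse 3.

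Values below are log2 levels, the log2 signal after subtracting the 75th percentile on that array, so that 0 is a signal at that percentile. Each gene is read from its brightest probe, and differences are those of large minus smaller tumours, with limma's standard error (SE). A gene is said to have risen or fallen where limma's adjusted p lay below 0.05.

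Of 16534 genes tested, 3153 passed, which is 19.1%: 2013 rose (12.2%) and 1140 fell (6.89%). The median difference over all genes was -0.03. The 4 large and 4 smaller arrays did not overlap in 3979 genes (24.1%), 2284 higher (13.8%) and 1695 lower (10.3%) in large tumours, and 2891 genes both passed and did not overlap. Without mouse 3, 4808 genes passed (29.1%), 2710 upward (16.4%) and 2098 downward (12.7%). These shares over all genes, with and without mouse 3, are the background for the counts of list members below. Of the 3153 genes, 3046 passed in the same direction without mouse 3, and 0 in the opposite one. The count was 1823 without 1300 mm3 mouse 2, 2079 without mouse 4, 1850 without mouse 5, 1826 without 600 mm3 mouse 3 and 2182 without 600 mm3 mouse 4. It was 2709 and 2230 without day 9 mouse 1 and mouse 2. Upward calls were 63.8% of all calls on this scale, but 60.6% (1821 against 1186) after normexp background correction, 52.1% (1356 against 1249) after quantile normalization and 47.6% (1225 against 1348) in the authors' deposited values, so the balance of rises and falls depends on the scaling.

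Immediate early and stress genes lead the rises. Of 21 tested members of that list, 11 rose and 0 fell, and the median difference was 2.65, beside -0.03 over all genes. Fosb, a subunit of the AP-1 transcription factor, was 45.3-fold higher, Hspa1a, the inducible HSP70 chaperone, 23.0-fold higher, and Nr4a1, an orphan nuclear receptor, 17.1-fold higher. The mean level of the list was 5.22, 2.29, 5.48 and 5.26 in large mice 2, 3, 4 and 5, against 2.18 and 2.09 at day 9 and 1.68 and 1.70 at 600 mm3. The large tumours lay above all smaller ones, with mouse 3 just above them and the other large tumours far higher. The mean level of the endothelial list, given below, moved the opposite way on the same arrays, and its part in the rise was not tested.

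Fosb stood at 6.33, 0.11, 6.73 and 6.48 at 1300 mm3 (mice 2 to 5), against -0.01 and -0.06 at day 9 and -1.09 and -1.21 at 600 mm3. Fosb, Fos, Hspa1a, Nr4a1 and Egr1 are among the 12 largest rises, a set limited to genes whose groups did not overlap. Lack of overlap in them is therefore no separate result. In Fosb mouse 3 lay only slightly above the day 9 tumours. The difference was 5.50 ± 1.37 (SE), adjusted p = 0.0262, and 7.10 without mouse 3, adjusted p = 8.28e-05. Fos, the partner of Jun in AP-1, stood at 5.83, 1.95, 6.19 and 6.16 at 1300 mm3, against 1.63, 1.22, 0.63 and 0.86 in the smaller tumours. The difference was 3.95 ± 0.89, adjusted p = 0.0178. Hspa1a had 5.09, 1.42, 5.38 and 4.89 at 1300 mm3, against -0.37 and -0.80 at day 9 and -0.68 and 0.54 at 600 mm3, a difference of 4.52 ± 0.83, adjusted p = 0.00752. Its mouse 3 value was the lowest of the large tumours and still above every smaller tumour.

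Nr4a1 was measured at 7.31, 3.52, 7.51 and 7.33 in the large tumours, against 2.85, 2.73, 1.93 and 1.79 in the smaller ones, a difference of 4.10 ± 0.85, adjusted p = 0.0127. Egr1, a zinc finger factor of the early growth response, was at 5.54, 3.16, 5.87 and 5.83 in large tumours, against 2.10, 1.89, 0.86 and 0.63 in smaller ones, with adjusted p = 0.00551 for a difference of 3.73 ± 0.63. In both genes the 600 mm3 tumours were the lowest. Atf3, a stress-induced factor of the ATF family, was at 6.66, 1.65, 6.95 and 6.84 in large tumours, against 2.12, 1.55, 1.20 and 1.57 in the smaller tumours. For Atf3 mouse 3 lay among the smaller tumours, and the difference was 3.91 ± 1.10, adjusted p = 0.0392, or 5.20 without mouse 3.

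The other members that rose were Dusp1, a phosphatase that switches off MAP kinases (3.28), Junb (3.11), Btg2, an anti-proliferative early gene (3.09), Ier2 (2.26) and Klf2 (1.92). Jun, Jund, Klf4, Klf6, Zfp36 and Ier3 had differences of 1.28 to 2.88 that did not pass with all 4 large tumours. Without mouse 3, 20 of the 21 members rose and the median difference was 3.57; the member left over was Hsph1, at 1.50 with adjusted p = 0.0537. Without any 1 of the other 7 arrays in turn, 5 to 8 members rose. The plot of levels by array shows the early genes beside genes that fell.

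**Figure D1:**
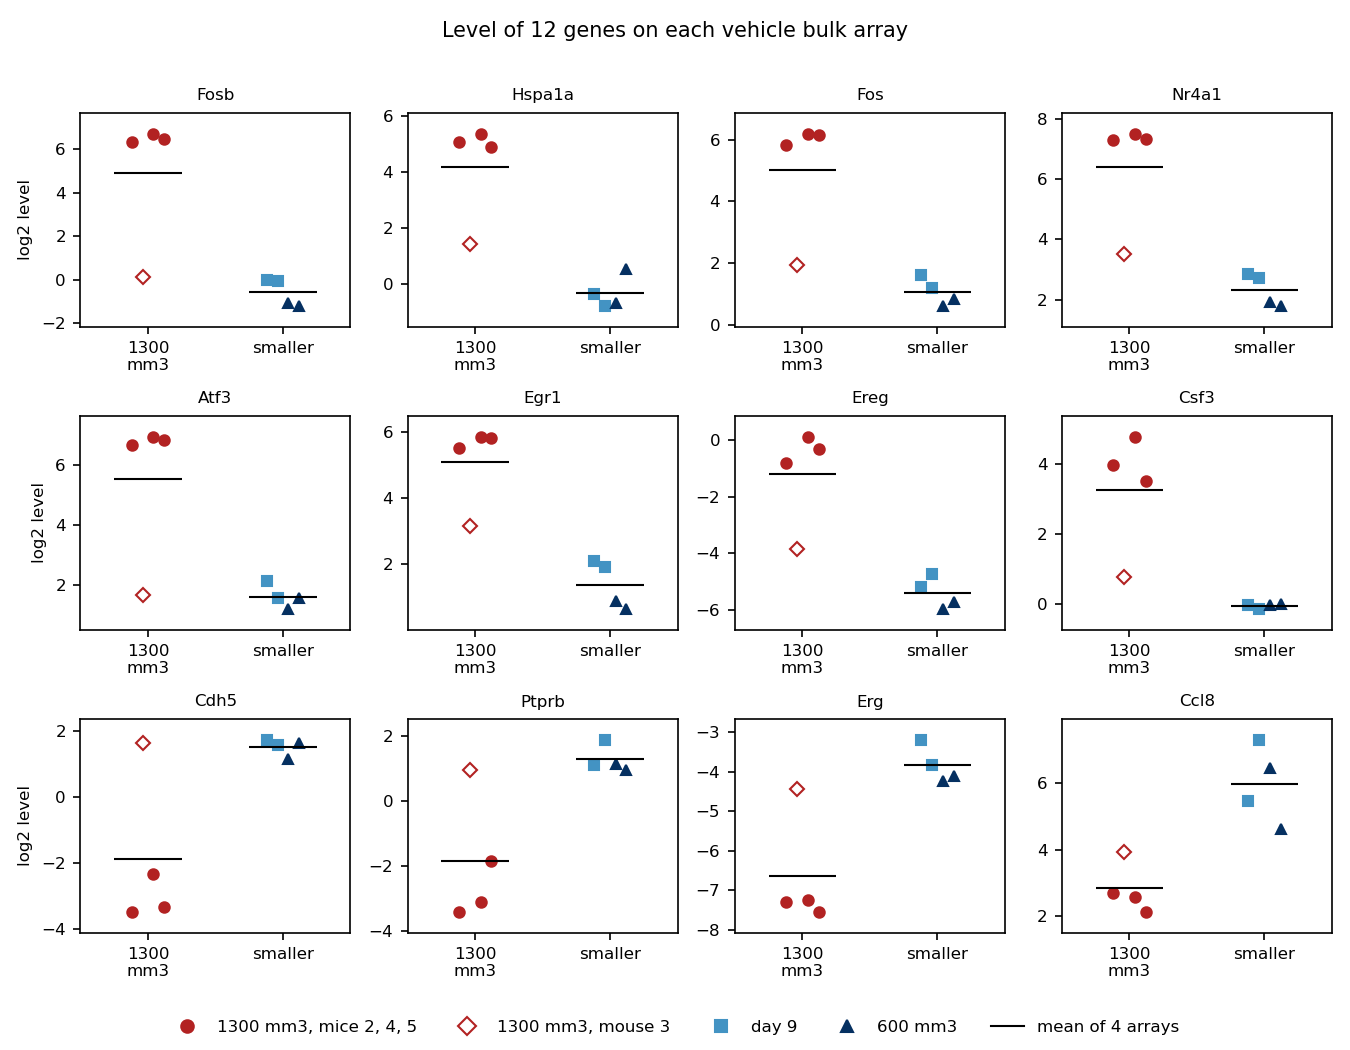
Log2 level (relative to the array 75th percentile) of 12 genes on the 8 vehicle arrays, each point an array and each bar the mean of 4 arrays. In the 3 large tumours other than mouse 3, Fosb lay between 6.33 and 6.73 and Cdh5 between -3.48 and -2.34, while mouse 3 (open diamond) had 0.11 and 1.64.

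Other early and activity-regulated genes were among the 12 largest rises chosen for not overlapping. Arc, known as an activity-regulated gene of neurons, was at 0.63, -3.76, 0.27 and 0.39 in large tumours, against -5.08, -3.83, -4.03 and -3.91 in smaller ones, a difference of 3.59 ± 0.92, adjusted p = 0.0286. Nfkbid, a nuclear regulator of NF-kappaB, differed by 3.65 ± 0.92, adjusted p = 0.0276. Ereg, which encodes the EGF receptor ligand epiregulin, was at -0.80, -3.83, 0.13 and -0.29 in large tumours, against -5.19 and -4.72 at day 9 and -5.96 and -5.72 at 600 mm3. By that choice all 4 large tumours exceeded all smaller ones in Ereg, and the difference was 4.20 ± 0.79, adjusted p = 0.00871.

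Inflammatory cytokines were higher in 3 of the 4 large tumours. Of 22 tested members 6 rose, 0 fell, and the median difference was 2.05. The 6 were Cxcl1, a chemokine that draws neutrophils (3.61), Osm, the IL-6 family cytokine oncostatin M (3.56), Ptgs2, the inducible cyclooxygenase (3.35), Csf3, which encodes G-CSF (3.30), Il1b (2.06) and Tgfb1 (0.66). The mean level of the list was 3.36, -0.01, 3.1 and 3.19 at 1300 mm3, against -0.03 and 0.42 at day 9 and -0.23 and 0.14 at 600 mm3. Mouse 3 lay within the range of the smaller tumours, so the groups overlapped.

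Csf3 stood at 3.96, 0.78, 4.77 and 3.52 in the large tumours, against -0.02, -0.13, -0.02 and 0.01 in the smaller ones, a difference of 3.30 ± 0.73, adjusted p = 0.0171. The 4 smaller tumours lay close together, and every large tumour was above them. Il1b, the main secreted form of interleukin 1 in myeloid cells, was at 6.0, 4.23, 5.52 and 5.99 in large tumours, against 3.19, 3.48, 3.08 and 3.76 in smaller ones, with adjusted p = 0.00892. Cxcl1 and Ptgs2 overlapped between the groups, since mouse 3 had 1.20 and 1.05, against at most 1.59 and 1.10 in the smaller tumours. Cxcl2 (5.72, adjusted p = 0.0689) and Tnf (4.89, adjusted p = 0.0542) had the largest differences of the list and did not pass. Without mouse 3, 17 members rose, among them Cxcl2 by 7.84 and Tnf by 6.68, and the median was 2.62; without each other array in turn, 2 to 5 rose.

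**Figure D2:**
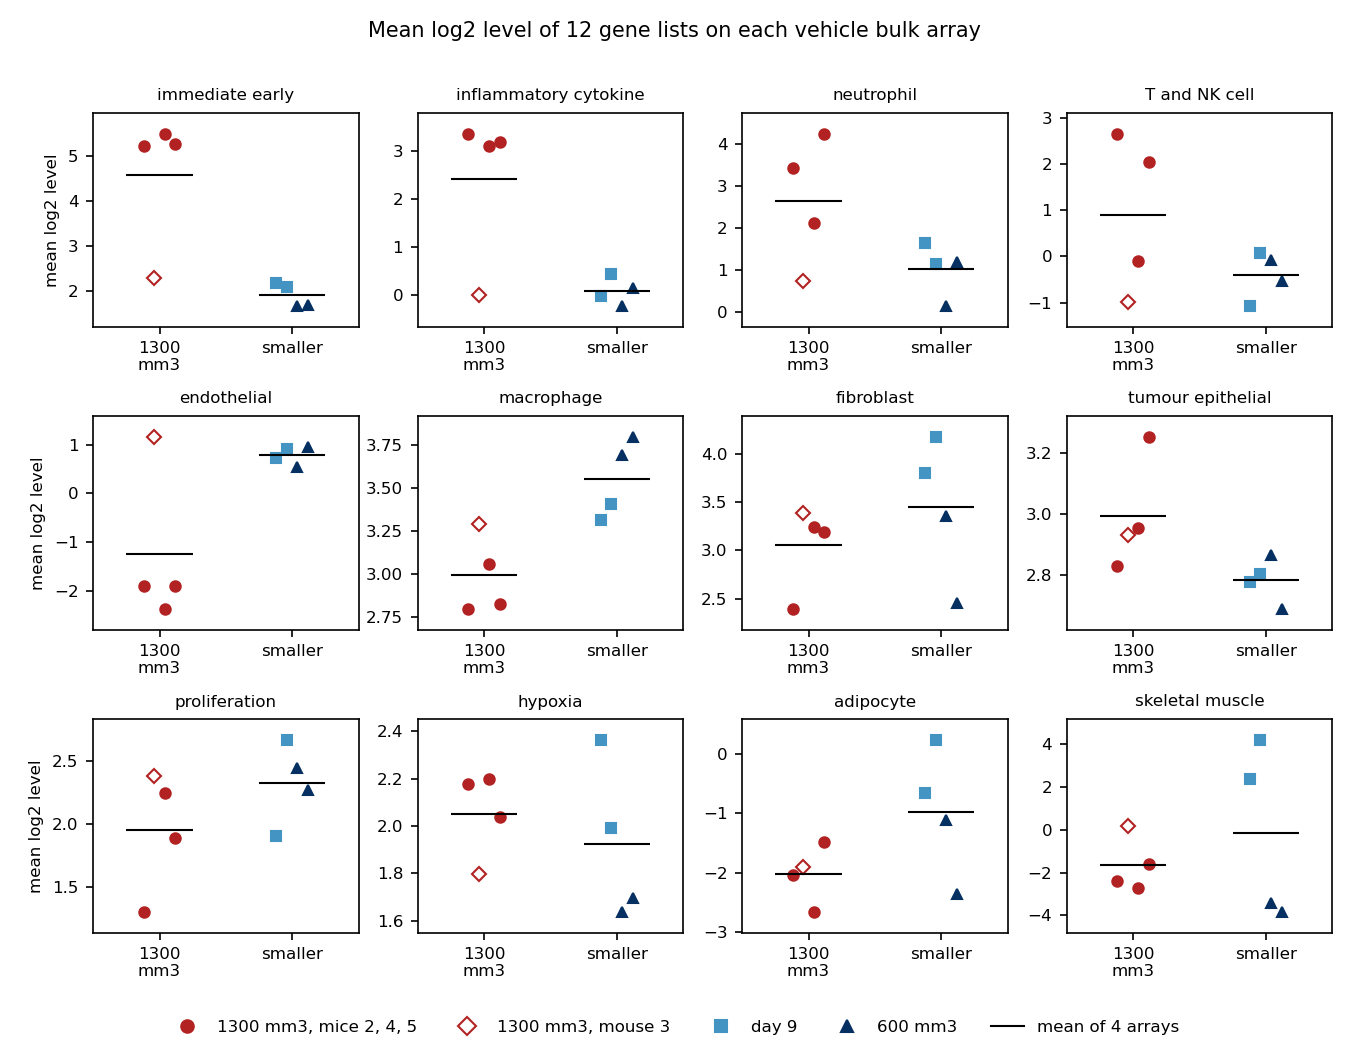
Mean log2 level of the tested members of 12 gene lists on each of the 8 vehicle arrays, with a bar at the mean of 4 arrays. Mouse 3 (open diamond) lies apart from its 3 group mates and nearer the smaller tumours for immediate early genes (2.29), inflammatory cytokines (-0.01) and endothelial markers (1.16), while the 2 day 9 tumours stand above the other 6 in skeletal muscle genes.

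Endothelial markers were lower in the same 3 large tumours. The mean level of the 28 markers was -1.90, 1.16, -2.36 and -1.90 at 1300 mm3 (mice 2 to 5), against 0.72 and 0.92 at day 9 and 0.53 and 0.95 at 600 mm3. Mouse 3 stood above every smaller tumour and its 3 group mates stood far below them. With all arrays 4 markers fell and 0 rose, with a median difference of -2.18. They were Cdh5, which encodes VE-cadherin, Ptprb, the vascular endothelial phosphatase, Erg, an endothelial transcription factor, and Vwf, von Willebrand factor. Without mouse 3, 23 fell and the median was -2.90; without each other array in turn, 0 to 2 fell.

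Cdh5 was at -3.48, 1.64, -2.34 and -3.33 in the large tumours, against 1.73, 1.57, 1.14 and 1.62 in the smaller ones, a difference of -3.39 ± 1.02, adjusted p = 0.0487, and -4.57 without mouse 3. Ptprb was at -3.41, 0.95, -3.11 and -1.86 in large tumours, against 1.11, 1.88, 1.14 and 0.96 in smaller ones, with adjusted p = 0.0365 for a difference of -3.13. Mouse 3 fell within the smaller tumours' range for Cdh5 and just below it for Ptprb. Erg was well above background on 1 of the 4 large arrays only, that of mouse 3 at -4.43, against -3.19 to -4.23 in the smaller tumours, and differed by -2.79 ± 0.66, adjusted p = 0.0213. Vwf had -1.02, 0.69, -2.12 and -1.27 in large tumours, against 1.34, 2.49, 1.05 and 0.35 in smaller ones, a difference of -2.24 ± 0.63, adjusted p = 0.0396.

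The other 24 endothelial markers did not pass, though 27 of the 28 had a lower mean and 19 an unadjusted limma p under 0.05. Sox18 (-3.75), Sox17 (-3.63), Robo4 (-3.56) and Mmrn2 (-3.46) differed most among those 24, at adjusted p = 0.0554 to 0.0897. Pecam1, Eng, Kdr and Flt1 differed less on their brightest probes. Pecam1, the bead target, was at -0.27, 0.38, -1.17 and -0.98 in large tumours, against -0.12, 0.21, -0.68 and -0.10 in smaller ones, a difference of -0.34 ± 0.36, adjusted p = 0.534. Its groups overlapped, and Eng, an auxiliary TGF-beta receptor of vessels, differed by 0.41. Kdr, the main VEGF receptor, was at 3.79, 3.72, 3.08 and 3.59 on its brightest probe in large tumours, against 4.11, 3.89, 3.02 and 3.48 in smaller ones, a difference of -0.08. Its other probe read -3.31, 0.24, -2.76 and -2.38 in large tumours, against -0.41, 0.30, -0.03 and 0.22 in smaller ones, a difference of -2.07, so the reading of Kdr depends on the probe. Flt1, a VEGF receptor, differed by -0.61 ± 0.28, adjusted p = 0.156, and by -0.83 without mouse 3, adjusted p = 0.0379. Beside the loss of endothelial markers stand the bead removal of PECAM-1 cells at 1300 mm3 and the slide, which cannot be told apart from size.

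**Figure D3:**
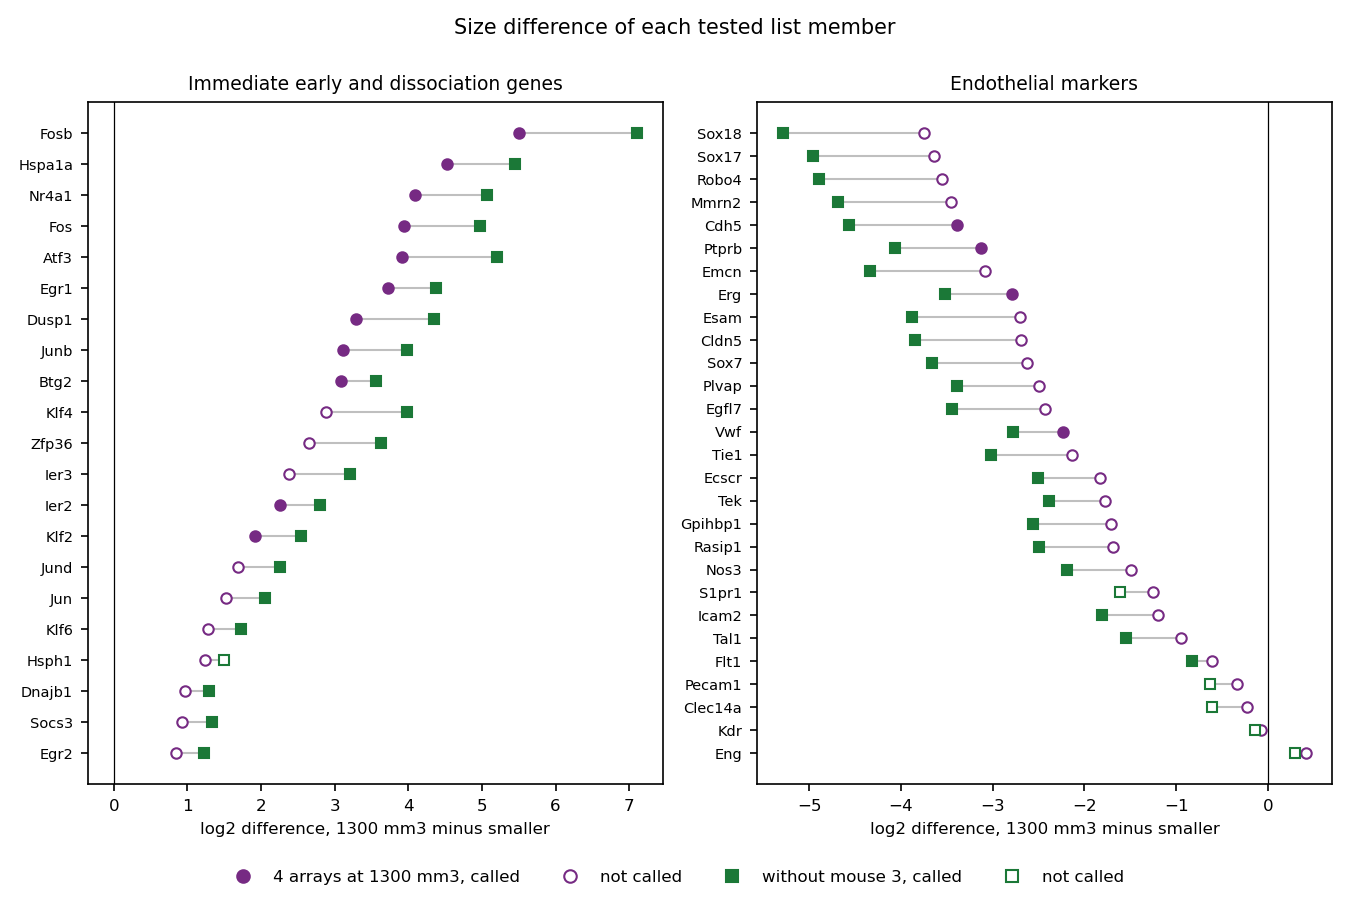
Log2 difference, 1300 mm3 minus smaller tumours, for each tested immediate early and dissociation gene (left) and endothelial marker (right), with all 4 large tumours (circles) and without mouse 3 (squares); filled symbols passed limma's adjusted p of 0.05. Called members number 11 of 21 and 4 of 28 with all arrays, and 20 and 23 without mouse 3.

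Mural cell genes, which mark pericytes and smooth muscle around vessels, moved less. Of 14 tested members Mcam, a cell adhesion molecule, fell, by -0.82, and the median difference was -0.37. Pdgfrb, the PDGF receptor of pericytes, was at 0.11, 1.73, 1.28 and 0.78 in large tumours, against 1.49, 1.99, 1.71 and 1.27 in smaller ones, and Rgs5, a pericyte gene, differed by -0.67; neither passed, at adjusted p = 0.212 and 0.16. Without mouse 3, 3 mural members fell. Of the lymphatic endothelial list only 3 of 7 members could be tested, of which 0 passed by limma and 0 had an unadjusted p under 0.05. Lyve1, a hyaluronan receptor of lymphatic vessels, was at -4.36, -4.14, -4.89 and -4.53 in the large tumours, against -0.38 and -0.47 at day 9 and -4.07 and -4.65 at 600 mm3. In Lyve1 the day 9 tumours alone were high. Angpt2, a vessel-destabilising ligand of endothelial cells, fell by 1.59 and Hlx, a homeobox factor, rose by 0.63 in the list of VEGF response and tip cells, where 18 of 20 members did not pass. Without mouse 3, 4 members of that list rose and 8 fell.

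Among angiogenic ligands and the receptors that sunitinib blocks, 2 of 22 tested members rose and 2 fell. These shares are near the 12.2% and 6.89% of all genes, and the median difference was -0.007. Vegfa, the main angiogenic growth factor, was at 4.83, 2.58, 4.84 and 4.18 in large tumours, against 3.08 and 2.61 at day 9 and 1.78 and 1.61 at 600 mm3. It overlapped through mouse 3, with a difference of 1.84 ± 0.54, adjusted p = 0.0468, and its other probe differed by 1.91. Without mouse 3 the difference was 2.34, adjusted p = 0.00465. Vegfb rose by 0.61 ± 0.18, adjusted p = 0.0464. Csf1r, the macrophage colony-stimulating factor receptor, fell by 0.93, and Pdgfd, a PDGF ligand, fell by 1.72 and was well above background on 1 of 4 large arrays.

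Markers of macrophages were lower as a group. Of 18 tested, 5 fell and 2 rose, with a median of -0.80. Mrc1, the mannose receptor, was at 1.58, 2.48, 2.18 and 1.62 in large tumours, against 3.57, 3.91, 3.47 and 2.98 in smaller ones, a difference of -1.52 ± 0.27, adjusted p = 0.00701. Adgre1, which encodes F4/80, was at 1.08, 1.83, 1.36 and 1.09 in large tumours, against 2.19, 2.83, 2.99 and 2.83 in smaller ones, with adjusted p = 0.00657. All 4 large tumours, mouse 3 included, lay below all smaller ones in both genes. C1qc, a chain of complement C1q, fell by 1.27 and Trem2, a lipid-sensing receptor of macrophages, by 1.02. Csf1r fell on its brightest probe, while its other probes differed by -0.46 and 0.39.

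The members that rose were Cd14, the lipopolysaccharide co-receptor, and Marco, a scavenger receptor. Cd14 was at 7.15, 4.39, 6.43 and 6.89 in large tumours, against 3.14, 3.12, 3.36 and 4.20 in smaller ones, a difference of 2.76 ± 0.58, adjusted p = 0.0133. Marco was at -0.92, -1.15, -1.25 and -1.14 in large tumours, against -2.34, -1.85, -2.90 and -2.37 in smaller ones, a difference of 1.25 ± 0.22. The groups did not overlap in either gene. Without mouse 3, 9 macrophage markers fell and the same number rose as with it. Ccl8, a chemokine made by macrophages, was among the 12 largest falls: 2.70, 3.92, 2.59 and 2.13 in large tumours, against 5.46, 7.30, 6.46 and 4.61 in smaller ones, a difference of -3.12 ± 0.60, adjusted p = 0.00902. Gpr34, a receptor of lysophosphatidylserine on myeloid cells, fell by 2.27.

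Neutrophil markers had a high median difference of 1.68, yet 2 of 26 tested rose, Il1b and Trem1, a receptor that amplifies myeloid inflammation (1.69). S100a8, a calgranulin abundant in neutrophils, was at 6.92, 3.97, 5.37 and 7.71 in the large tumours, against 4.32, 4.17, 2.84 and 4.99 in the smaller ones. S100a9, its partner, was at 8.60, 5.96, 7.20 and 8.50 in large tumours, against 5.94, 5.59, 4.74 and 7.04 in smaller ones. In both genes mice 2 and 5 were the highest and mouse 3 lay within the smaller range, and the differences of 1.91 and 1.74 did not pass, at adjusted p = 0.125 and 0.10. Without mouse 3, 13 of the 26 rose, S100a8 by 2.59 and S100a9 by 2.27.

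T and NK cell markers followed the same 2 mice. Their mean level was 2.66, -0.99, -0.09 and 2.04 at 1300 mm3, against -1.07, 0.06, -0.09 and -0.53 in the smaller tumours. Of 24 tested, 0 passed by limma with all arrays and 9 had an unadjusted p under 0.05, with a median of 1.28, and 10 rose without mouse 3. Prf1, the pore-forming perforin, was at 2.64, 0.70, 1.01 and 1.82 in large tumours, against 0.31, 0.29, 0.64 and 0.56 in smaller ones, without overlap but with adjusted p = 0.0838. Tbx21, the T-bet factor, differed by 1.85, adjusted p = 0.0856.

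Among B and plasma cell markers Pax5, the factor that fixes B cell identity, rose by 2.70, and Cd79a, a chain of the B cell receptor, rose by 1.72. Both probes were dim, at most -1.73 on every array. Of 13 dendritic cell markers Cd83 rose by 1.50 and Irf8, a lineage factor, fell by 0.65, and without mouse 3, 3 rose and 1 fell. Eosinophil and mast cell markers (14 tested) and erythroid genes (6 tested) held 0 calls by limma, with 1 and 3 at an unadjusted p under 0.05. Epx, eosinophil peroxidase, differed by 2.50, adjusted p = 0.0579, and Alas2, the erythroid aminolevulinate synthase of haem synthesis, by 2.55, adjusted p = 0.0891. Without mouse 3 the difference of Epx was 3.00 and that of Alas2 3.40, both past the threshold. Of 8 platelet genes Clec1b rose on its brightest probe by 1.56, while its other probes differed by -2.11 and -1.03.

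Few genes of the stroma passed the test. Of 21 fibroblast genes 0 passed by limma, 2 had an unadjusted p under 0.05, and the median was -0.37. Col1a1, the main chain of type I collagen, was at 5.20, 6.54, 6.32 and 6.11 in large tumours, against 7.19, 7.08, 6.66 and 5.43 in smaller ones. Lum and Postn, matrix proteins of fibroblasts, differed by -0.88 and -1.21, at adjusted p = 0.123 and 0.0689. Without mouse 3, 3 fibroblast genes fell, a share near the 12.7% of all genes. Of 16 basement membrane genes 0 passed by limma, with 3 at an unadjusted p under 0.05 and 5 falls without mouse 3. Nid2, a nidogen that links laminin to collagen IV, was at -3.14, 0.56, -2.95 and -3.06 in large tumours, against 0.33, -0.09, 0.48 and 0.70 in smaller ones. Mouse 3 lay among the smaller tumours, and Nid2 differed by -2.50, adjusted p = 0.0546, and by -3.41 without mouse 3, adjusted p = 0.000223. Nid1 differed by -1.23, adjusted p = 0.0809, with other probes at -1.36 and 0.23. Among 20 matrix proteases Ctsk, a collagen-degrading cathepsin, fell by 0.88, and Adamts4 differed by -1.57, adjusted p = 0.0552. Without mouse 3, 3 proteases rose and 2 fell, shares near the 16.4% and 12.7% of all genes.

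Of 14 adipocyte genes 2 rose, a share near the 12.2% of all genes, and 2 fell, beside 6.89% of all genes. Cfd, the adipokine adipsin, was at -3.91, -2.92, -4.44 and -1.07 at 1300 mm3, against 1.35 and 2.76 at day 9 and 1.69 and -1.56 at 600 mm3, a difference of -4.14 ± 1.00, adjusted p = 0.0231. The lower 600 mm3 tumour lay below the highest large tumour, so the groups overlapped. Cd36, a fatty acid transporter, fell by 1.72. Lep, the adipokine leptin, rose by 1.57 and Cidec, a lipid droplet protein, by 1.41, though another probe of Cidec differed by -2.58. The median difference of the list was -0.72.

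Skeletal muscle genes were high at day 9 alone. Their mean level was -2.40, 0.17, -2.72 and -1.58 at 1300 mm3, against 2.38 and 4.21 at day 9 and -3.40 and -3.83 at 600 mm3. Of 17 tested, 0 passed by limma against the pooled smaller tumours, and 0 had an unadjusted p under 0.05. Tnni2, fast skeletal troponin I, was at 3.31, 4.49, 3.30 and 3.40 in large tumours, against 5.84, 7.28, 4.08 and 2.98 in smaller ones. Casq1, a calcium store protein of muscle, differed by -2.82, adjusted p = 0.183. Set against day 9 alone the median difference of the list was -5.18, and against 600 mm3 alone it was 2.15.

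Carcinoma markers rose about as often as all genes did. Krt8, a keratin of simple epithelia, was at 6.43, 5.70, 6.52 and 6.28 in large tumours, against 6.28, 6.40, 5.78 and 5.79 in smaller ones, a difference of 0.17 ± 0.24, adjusted p = 0.645. Epcam, an epithelial adhesion molecule, differed by -0.48 ± 0.30, adjusted p = 0.281. Of 22 tumour epithelial genes 2 rose, a share near the 12.2% of all genes, and 0 fell, beside 6.89% of all genes. The median was 0.10. Cldn4, a tight junction claudin, rose by 1.11 ± 0.19 and Ehf, an epithelial ETS factor, by 1.10 ± 0.25. Among 7 secretory mammary genes that could be tested, Prlr, the prolactin receptor, rose by 1.40, Cel by 1.00 and the milk protein gene Wap by 0.86, and without mouse 3, 5 rose. Wap was well above background on 1 of 4 large and 3 of 4 smaller arrays. Ehf, Prlr and Wap belong to the 5511 genes of lowest mean level, of which 1563 rose, with a median difference of 0.42. Of 15 genes of mesenchymal transition Snai1, the Snail repressor, rose by 0.91 ± 0.24 and S100a4 fell by 0.75 ± 0.21.

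Of 32 proliferation genes 2 fell and 0 rose, a share near the 6.89% of all genes that fell, with a median of -0.31. Cdk1, the mitotic kinase, was at -0.37, 1.18, 1.00 and 0.68 in large tumours, against 1.99, 2.45, 2.23 and 2.33 in smaller ones, a difference of -1.62 ± 0.32, adjusted p = 0.0109. Aurka, a spindle kinase, was at 0.54, 2.08, 1.79 and 1.21 in large tumours, against 2.20, 3.19, 2.59 and 2.56 in smaller ones, adjusted p = 0.0432. The groups did not overlap in either gene. Mki67 was at 3.52, 4.80, 4.44 and 4.14 in large tumours, against 3.85, 4.78, 4.61 and 3.98 in smaller ones, a difference of -0.08 ± 0.32, adjusted p = 0.888. Without mouse 3, 5 members fell, a share near the 12.7% of all genes.

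Of 23 tested hypoxia targets Vegfa alone rose, 0 fell, 5 had an unadjusted p under 0.05, and the median was 0.11. Without mouse 3, 3 rose and 1 fell, beside 16.4% and 12.7% of all genes. Car9, a carbonic anhydrase induced through HIF, was at 4.13, 3.74, 4.47 and 3.82 in large tumours, against 4.38, 3.97, 4.25 and 3.66 in smaller ones, a difference of -0.03 ± 0.23, adjusted p = 0.947. Mxi1 differed by 1.05, adjusted p = 0.0698. Of 17 glycolysis genes 0 passed by limma and 3 had an unadjusted p under 0.05, with a median of 0.13. The glycolytic enzymes Pfkl and Eno2 differed by 0.58 and 0.82, at adjusted p = 0.108 and 0.109.

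Of 18 genes of ER and amino acid stress 4 rose: Atf3, Ppp1r15a, which encodes the phosphatase subunit GADD34 (3.30 ± 0.79), Sesn2 (0.98) and Dnajb9, an ER chaperone (0.90). Ppp1r15a was at 5.81, 2.13, 5.35 and 5.54 in large tumours, against 2.40, 1.26, 0.73 and 1.24 in smaller ones, so that mouse 3 lay below 1 day 9 tumour. Without mouse 3, 6 of these 18 rose. Of 18 genes of p53 response and cell death 3 rose and 1 fell, shares near the 12.2% and 6.89% of all genes, and without mouse 3, 6 rose and 1 fell. Cdkn1a, the cell cycle inhibitor p21, was at 3.72, 2.06, 3.28 and 3.53 in large tumours, against 2.37 and 1.72 at day 9 and 0.30 and 0.38 at 600 mm3, a difference of 1.96 ± 0.54, adjusted p = 0.0376. The death genes Bbc3 and Pmaip1, known as Puma and Noxa, rose by 0.86 and 1.32, and Sesn1 fell by 0.74.

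Of 20 antigen presentation genes 3 fell and 0 rose: Ciita, the master regulator of MHC class II (-1.54), Gbp3 (-1.10) and Nlrc5 (-0.62). Nlrc5 had another probe that differed by 0.97. Of 18 genes of the type I interferon response 2 rose, a share near the 12.2% of all genes, with a median of 0.09. The 2 were Rsad2, the antiviral protein viperin (1.02), and Oas3 (0.94). Without mouse 3, 3 rose and 2 fell, shares near the 16.4% and 12.7% of all genes. Of 19 lysosome genes Ctss, a cathepsin of antigen-presenting cells, and Lamp1, a membrane protein of lysosomes, fell. Ctss was at 5.13, 6.07, 5.58 and 5.52 in large tumours, against 7.12, 6.86, 7.04 and 6.88 in smaller ones, a difference of -1.40 ± 0.21, adjusted p = 0.00331. Of 23 genes of cholesterol and fatty acid synthesis 0 passed by limma and 1 had an unadjusted p under 0.05, with a median of 0.03. The sterol synthesis enzymes Msmo1 and Fdps differed by -0.57 and -0.39.

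Further genes among the 12 largest rises and 12 largest falls belonged to no list. Fcgbp, a mucus-like secreted protein, was at 0.65, -4.07, -2.63 and -0.08 in large tumours, against -6.95, -4.82, -5.29 and -4.49 in smaller ones, a difference of 3.86 ± 1.03. Ccno, a cyclin of multiciliated cells, differed by 3.74 ± 0.89, and Mrgprd, a receptor known from sensory neurons, by 3.77 ± 0.46. Mrgprd was well above background on all large arrays and on 1 of 4 smaller ones. Camta1, a calmodulin-binding transcription activator, was at -5.94, -5.12, -4.88 and -5.13 in large tumours, against -2.89, -2.59, -3.02 and -2.70 in smaller ones, adjusted p = 0.000929. The groups did not overlap in Camta1, which the naming rule required. It was well above background on 2 of 4 large arrays, so the size of the gap rests partly on values near background. Its other probe differed by -3.33. Gm4841 fell by 2.34 and Adamts7, a matrix protease, by 2.22.

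For 5 of these falls no large array had the gene well above background, and the difference is given as a bound against the dimmest signal called on each array. Gpr1, a chemerin receptor, was at least 3.24-fold lower, at adjusted p = 0.0287 in the fit, and Pigw, an enzyme of GPI anchors, at least 3.16-fold, at 0.00923. Rab39, a small GTPase, was at least 2.93-fold lower, at 0.00847, Chp2, a calcineurin B homologue, at least 2.69-fold, at 0.041, and Peg3, an imprinted zinc finger gene, at least 1.89-fold, at 0.00124. The naming rule required each of these genes to be well above background on all 4 smaller arrays. They met the filter on dim probes through those arrays alone, so detection there is no separate result. Their adjusted p values rest on large-array values not well above background, in genes chosen for passing. They are no separate support either.

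Rises were concentrated among dim probes. Of 18780 probes without a gene name, fitted apart, 6876 passed (36.6%), 5691 upward (30.3%) and 1185 downward (6.31%), with a median of 0.33. Among the 5511 genes of lowest mean level 1563 rose and 214 fell, with a median of 0.42. The 1563 include Marco, Ehf, Prlr, Wap, Lep, Cidec, Cd79a, Pax5, Arc, Ereg, Ccno, Fcgbp and Mrgprd, named above. Among the 5511 of middle level 324 rose and 471 fell, and among the 5512 of highest level 126 rose and 455 fell, with a median of -0.15. Genes of olfactory, vomeronasal and bitter taste receptors, a set chosen after the values were seen, belong to the dim end. Of 496 tested, 282 rose (56.9%, beside 12.2% of all genes) and 3 fell (Olfr558, Tas2r117 and Vmn1r65), with a median of 1.00. Their mean level was -3.1, -3.47, -3.51 and -3.42 at 1300 mm3, against -4.27 and -4.36 at day 9 and -4.41 and -4.15 at 600 mm3. The large tumours all lay above the smaller ones, mouse 3 with them. In the authors' deposited values the median was 0.29, with 126 higher and 12 lower, and after quantile normalization it was 0.53, with 164 higher; the part of the scaling in the rest was not tested.

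**Figure D4:**
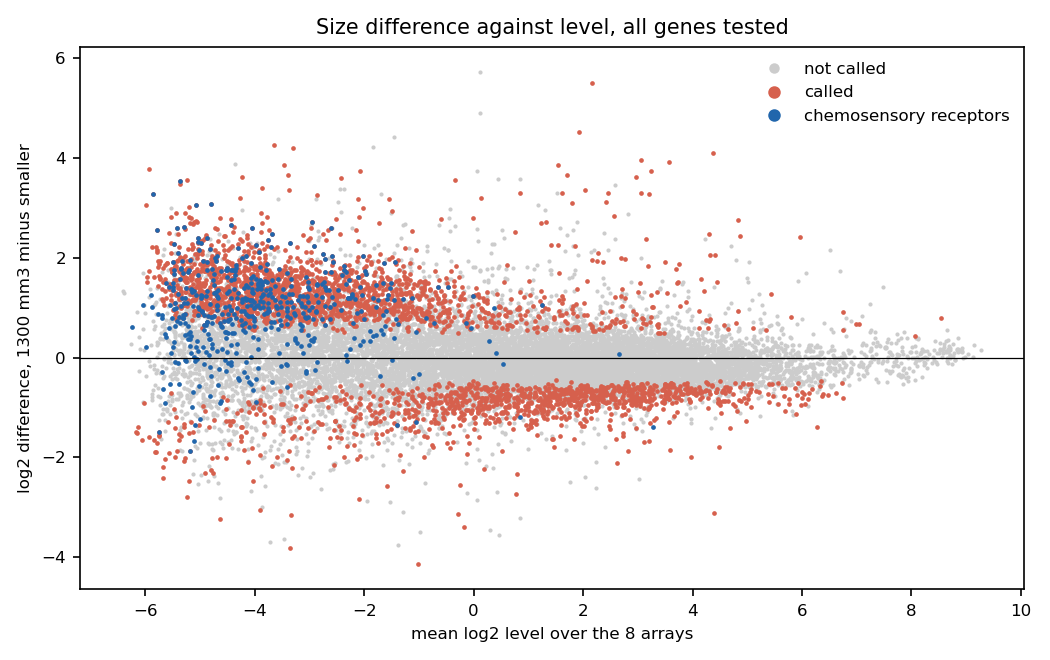
Log2 difference, 1300 mm3 minus smaller tumours, against the mean log2 level over the 8 arrays, for the 16534 genes tested; red points show genes that passed limma's adjusted p of 0.05 and blue points are olfactory, vomeronasal and taste receptor genes, whose median is 1.00. Upward calls crowd the dim end, with 1563 among the 5511 dimmest genes and 126 among the 5512 brightest.

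The smaller stages gave different partners for the large tumours. Against 600 mm3 alone 2362 genes passed (14.3%), 1564 upward (9.46%) and 798 downward (4.83%), and against day 9 alone 2132 (12.9%), 1503 upward (9.09%) and 629 downward (3.8%). The 600 mm3 tumours differed from the day 9 tumours in 154 genes (0.931%), 39 higher (0.236%) and 115 lower (0.696%). Of the skeletal muscle list, 11 of 17 genes were lower at 600 mm3 than at day 9, with a median of -7.02, beside 0.09 over all genes. Immediate early genes had 0 calls between these stages and a median of -0.49, and endothelial markers 0 and -0.07. Fosb was 6.06 higher in the large tumours than at 600 mm3 and 4.95 higher than at day 9, though with 2 arrays a stage neither difference passed, at adjusted p = 0.0569 and 0.103. The contrasts of the large tumours share the large arrays.

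The same size contrast was made in sunitinib mice, which shared slides but no array with the vehicle mice. They received sunitinib, an inhibitor of VEGF, PDGF and related receptors, at 40 mg per kg, and all were labelled sensitive. There the 4 bulk fractions at 1300 mm3 were set against 2 tumours at day 9 and 2 at 600 mm3, and 5098 of 16915 genes passed (30.1%), 3170 upward (18.7%) and 1928 downward (11.4%). Of the 3133 vehicle calls tested there, 2175 passed in the same direction, which is 69.4% of them and 45.0% of the 4830 sunitinib calls tested in vehicle mice. A single gene, Hrct1, passed in opposite directions, at -1.61 in vehicle and 0.91 in sunitinib mice.

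The immediate early list rose in sunitinib mice as well, for 20 of 21 members and by a median of 2.71, and its mean level was 4.88 to 5.11 at 1300 mm3, against 1.63 to 2.90 in smaller tumours. No large sunitinib tumour stood with the smaller ones in that list. Fosb rose by 5.60, adjusted p = 8.98e-05, and Hspa1a by 4.85. Endothelial markers fell for 12 of 28 members, by a median of -1.52, with Cdh5 at -3.71 and Ptprb at -3.54. T and NK cell markers rose for 20 of 24, with a median of 2.69, and inflammatory cytokines for 12 of 22, with a median of 1.86. Skeletal muscle genes fell for 14 of 17.

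A test of the difference between the size effects of the 2 treatments called 0 of 17418 genes by limma, with 888 at an unadjusted p under 0.05 and the smallest adjusted p at 0.052. Camta1 differed by 0.21 in sunitinib mice, against -2.47 in vehicle mice, a difference of -2.68 with unadjusted p = 0.0314 and adjusted p = 0.948. Erg differed by -0.85 in sunitinib mice, and Fcgbp rose by 6.54. The effects of Erg and Fcgbp did not differ between treatments past the threshold either.

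**Figure D5:**
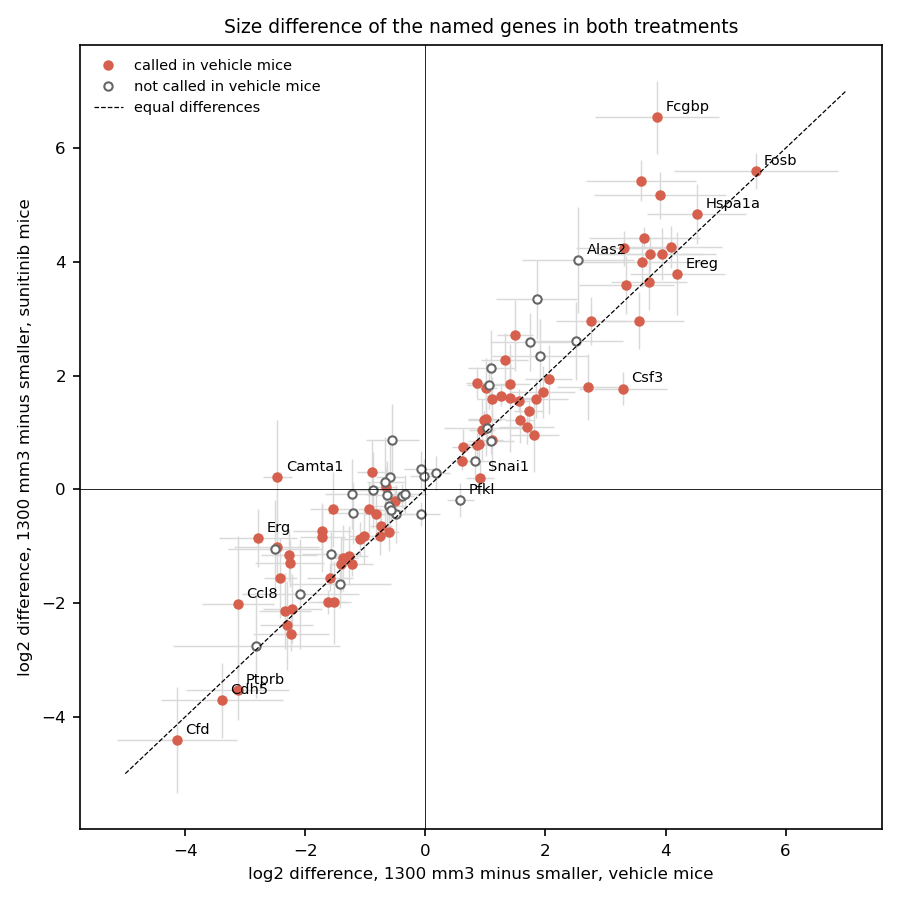
Log2 difference, 1300 mm3 minus smaller tumours, of the named genes that could be tested in both treatments, sunitinib mice on the vertical axis and vehicle mice on the horizontal one, with limma's standard errors as bars and a dashed line where both are equal. Fosb lies near the line (5.60 and 5.50), while Camta1 (0.21 and -2.47) lies off it.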

How the data were processed

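Single-colour Agilent mouse arrays measured RNA of 32 samples, and 16 bulk tumour arrays enter here: 8 from vehicle mice and 8 from sunitinib mice. The authors deposited scanner output whose processed signal is an intensity on a linear scale, background-subtracted by Feature Extraction 10.7.3.1 per the file headers; the submitters' processing notes name version 9.1. The authors also deposited a normalized value table, used as an alternative (column medians 123.2 to 125.0, read as linear because it tracks the scanner values at r = 0.973 to 0.981; its normalization is not given in the sources used here).

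From the deposited intensity the log2 signal minus each array's 75th percentile was computed. Control and outlier spots were left out and spots of a probe averaged. Probes were named through RefSeq accessions (26582 probes, 20145 genes), each gene was read from its brightest probe over all arrays, and a probe had to be well above background on at least 4 of the 8 arrays. Tests were lmFit and eBayes of limma 3.58.1 in R 4.3.3 with Benjamini-Hochberg adjustment over all genes tested, and summaries used Python 3.11.15 with pandas 2.3.3 and scipy 1.17.1. The fit was tested on simulated data. The number of arrays limits the precision.

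The genes named are the 12 largest rises and 12 largest falls among non-overlapping calls detected on every array of the higher group, up to 4 called members per list and direction (or the 2 with the smallest p), and 12 genes chosen for the tissue and treatment. Further list members, Eng, Tnf and Cxcl2 among them, were named after their values were seen. Some results are not reported here. The comparison and the 32 lists were chosen with earlier results of these data known. Replicate numbers did not pair the samples: same-numbered arrays are different mice, and their deviations correlated at -0.015, -0.060 and 0.146. The alternatives tried were other background, normalization, filter, probe and stage settings, all bulk arrays in a fit, a replicate block, and each array left out in turn.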

Additional observations from a re-analysis of the deposited data

Results flagged for a closer look

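In the 4 vehicle tumours at 1300 mm3, 145 results were searched for a tumour far from its group, and 22 had one, 21 of them in mouse 3. Chance gives about 1 in 20 for a single result. The results share arrays and genes and are not independent, so their count cannot be set against that rate. Of the list means, mouse 3 stood apart in endothelial markers (1.16, others -2.36 to -1.89), inflammatory cytokines (-0.01, others 3.1 to 3.36), VEGF response and tip cell genes (1.43, others 0.55 to 0.63), immediate early genes (2.29, others 5.22 to 5.48) and p53 and cell death genes (2.10, others 2.67 to 2.73).

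Among transcription and stress genes its log2 level was low in Fosb (0.11), Fos (1.95), Egr1 (3.16), Nr4a1 (3.52), Atf3 (1.65), Hspa1a (1.42), Arc (-3.76), Ppp1r15a (2.13) and Dnajb9 (1.38). It was also low in Cxcl1 (1.20), Ptgs2 (1.05), Ccno (-3.26) and Pax5 (-5.18). It was high in the endothelial factor Erg (-4.43), the basement membrane gene Nid2 (0.56) and the muscle gene Tnni2 (4.49). In Pfkl, a glycolytic enzyme, mouse 4 stood apart instead, at 4.10 against 3.62 to 3.67 in the others.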

How the results depend on the processing

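The vehicle comparison gave 3153 calls, 4763 with no filter on dim probes (3545 higher, 1218 lower), 1876 when all bulk arrays were fitted together (846 higher, 1030 lower) and 0 with the replicate number as a block, where 4465 genes had an unadjusted p under 0.05. Leaving out an array gave 1823 to 4808 calls. The sunitinib comparison gave 1487 calls with the replicate block and 3737 to 4875 with an array left out, against 5098. The difference between treatments gave 4 calls in the deposited values (Clic6, Hrct1, Plb1 and Ptn), 2 after quantile normalization (Plb1 and Tfap2b), 0 with the replicate block and 0 to 4 with an array left out, against 0. With the mean of all probes of a gene, Cidec had -0.58, Clec1b -0.53 and Nlrc5 0.18, each the reverse of its brightest probe. That mean takes in their other probes, which differed by -2.58 in Cidec, -2.11 and -1.03 in Clec1b and 0.97 in Nlrc5. The cause of the shifts under the other settings was not tested.

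Of the 79 named genes that passed, 62 passed in the deposited values, 59 after quantile normalization, 68 after normexp correction, 51 in the fit of all bulk arrays and 32 to 79 with a 1300 mm3 array left out. Size, slide and bead selection go together, so no setting can part them, and dim probes carry most upward calls.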

Other observations

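Of 648 genes that passed and had another tested probe, 179 had one whose difference took the other sign. Plb1, a phospholipase, was called for a difference between treatments in the deposited values (-2.49) and after quantile normalization (-5.03), vehicle minus sunitinib, and was named after its values were seen.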
